A study of Mus musculus with 6 samples.

Results

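The 10 genes described here are transcription factors that establish and keep the identity of astrocytes: Sox9, Sox2, Nfia, Nfib, Nfix, Zbtb20, Rorb, Lhx2, Pax6 and Hes5. They were taken by name from the deposited tables, and each of the 10 was found once among 24421 listed genes. Astrocytes were isolated from hippocampi of adult male Siglech dtr/dtr mice (C57BL/6 strain) by magnetic sorting with beads against the astrocyte surface antigen ACSA-2, after CD11b-positive cells had been removed. The allele places the diphtheria toxin receptor in Siglech, a gene of microglia, so that diphtheria toxin (DT) ablates these cells. The PBS libraries came from Siglech dtr/dtr mice injected with PBS and the DT libraries from Siglech dtr/dtr mice given 50 µg/kg DT intraperitoneally, both 2 days before sampling, with 3 libraries in each group and 2 mice pooled in each library. All mice were therefore homozygous for the allele, which also lowers Siglec-H itself, and no library came from wild-type mice given DT. The question addressed here was whether the factors behind astrocyte identity differed in these astrocytes after microglia had been ablated.

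Astrocytes arise from radial glia, and the same factors act in both. SOX9 and the NFI proteins start the glial programme, SOX2 keeps neural progenitors and is retained in astrocytes, and ZBTB20, LHX2 and PAX6 act in patterning and in the fate choices of hippocampal progenitors. RORB is an orphan nuclear receptor that marks forebrain astrocytes, and HES5 is a repressor switched on by Notch signaling that holds back neuronal differentiation. Many of these proteins bind DNA at enhancers and promoters of astrocyte genes such as Gfap.

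None of the 10 genes passed the threshold (adjusted p under 0.05) 2 days after DT with limma, edgeR's quasi-likelihood test or DESeq2. With limma, 3 had an unadjusted p under 0.05: Nfix, with more RNA after DT, and Nfia and Lhx2, with less. Over all genes tested, 5.91% had such a p with more RNA after DT and 4.51% with less. Across the 15137 genes tested, 0.555% were higher after DT and 0.159% were lower past the same threshold. The log2 difference was below 0 for 8 of the 10 genes, with a median of -0.12, beside a median of -0.01 and 48.7% of differences above 0 over all genes tested. That median was -0.05 without PBS replicate 1 and -0.07 without PBS replicate 2. An exact edgeR test on recovered reads, chosen after the data had been seen, called 1 member, Nfix. Nfix and Nfia were the members whose libraries did not overlap between the groups. Such a lack of overlap in CPM held for 8.75% of all genes tested with DT above and 7.57% with DT below.

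**Figure D1:**
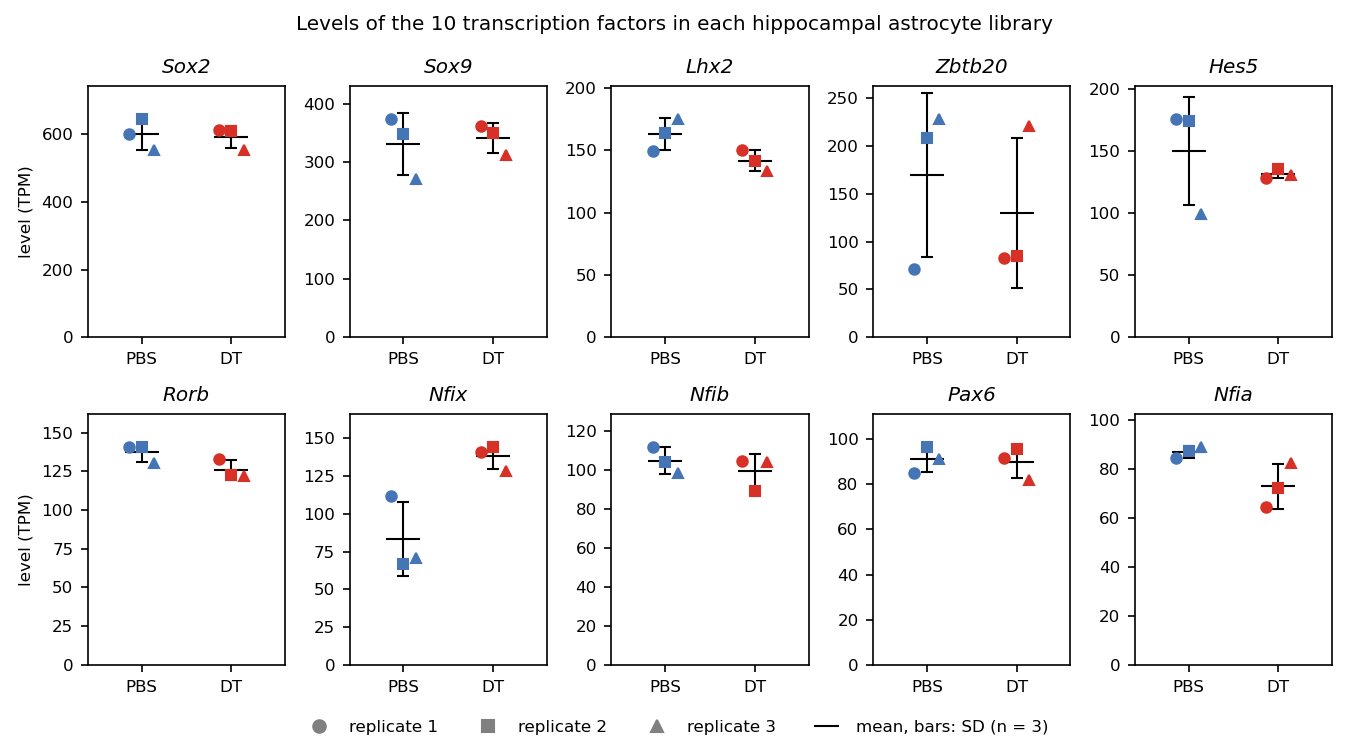
Levels of the 10 transcription factors in TPM (y axis from 0) in each PBS (blue) and DT (red) library, with the mean and SD of 3 libraries. Nfix lies above all PBS libraries and Nfia below all PBS libraries after DT, and Zbtb20 splits each group.

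The libraries held 21704891 to 32933975 reads in genes, and each member had between 940 reads (Hes5 in PBS replicate 3) and 17685 reads (Sox2 in PBS replicate 2) in a library. The sum of the 15 astrocyte markers was 37328 to 38635 TPM in the PBS libraries and 39109 to 42215 TPM in the DT libraries, and that of the 14 without Gfap 36248 to 37641 TPM and 35222 to 37688 TPM with overlap. Slc1a2 and Slc1a3, the glial glutamate transporters, were the most abundant of them. Siglech had 21 to 71 reads in the PBS libraries and 0 reads in all 3 DT libraries. Of 18 microglia markers, 8 were lower after DT with limma and none was higher, with Siglech, P2ry12, Cx3cr1 and Csf1r among the 8, and their sum was 338 to 436 TPM in the PBS libraries and 200 to 228 TPM in the DT libraries. Of 8 tested markers of border-associated macrophages, Mrc1, Lyve1 and F13a1 were higher, and the sum of the list was 24.4 to 39.5 TPM with PBS and 71.8 to 93.1 TPM with DT. Ependymal markers added up to 566 to 714 TPM in the PBS libraries and 735 to 1227 TPM in the DT libraries, with Mcidas at 0 in all libraries, and choroid plexus markers to 148 to 2088 TPM with PBS and 1300 to 3491 TPM with DT, led by Ttr. Endothelial markers added up to 830 to 1342 TPM with PBS and 712 to 859 TPM with DT. Of the 14 endothelial markers, 13 had a log2 difference below 0, and all 10 tested ependymal markers had one above 0. DESeq2 and the edgeR exact test called Cldn5 and Kdr as lower. DESeq2 called Foxj1 and Dnah11 as higher, and the edgeR exact test Dnah11. With limma no gene of the endothelial, ependymal and choroid plexus lists passed the threshold. In bulk samples such as these, fewer cells of a type and less RNA per cell cannot be told apart, and the part of these other cells in the values of the 10 genes was not tested.

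SOX2 and SOX9 are HMG-box factors, and their genes had the highest levels of the 10. Sox2 lies on chromosome 3 at 34650405 to 34652461 (mm10, plus strand). Its level, as transcripts scaled for length and library (TPM), was 601, 647 and 555 TPM in PBS replicates 1 to 3 and 614, 610 and 555 TPM in DT replicates 1 to 3. In both groups replicate 3 was the lowest, and the groups overlapped. The log2 difference (DT minus PBS) was -0.03 ± 0.07 (SE), with a 95% interval of -0.20 to 0.14 and an adjusted p of 0.926 (limma). Sox2 is embedded on the same strand in the long noncoding gene Sox2ot, which was listed at 43.6 to 58.0 CPM beside 504 CPM for Sox2 in the PBS mean, so reads could have been assigned to either gene.

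Sox9, on chromosome 11 at 112782224 to 112787760 (plus strand), had 374, 348 and 270 TPM after PBS. After DT, it had 361, 350 and 312 TPM. Here too replicate 3 was the lowest in each group, and the groups overlapped. The log2 difference of 0.04 ± 0.12 had an interval of -0.24 to 0.32 and an adjusted p of 0.942 (limma), and its direction turned without PBS replicate 3 (-0.10) and without DT replicate 1 (-0.02). Together with 9 other SOX genes, the family totalled 1476 ± 131 TPM after PBS and 1441 ± 81.8 TPM after DT (SD, n = 3). Sox2 made up 40.8% of that sum after PBS and 41.2% after DT, and Sox9 22.3% and 23.7%, with overlapping groups for both.

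The NFI genes encode nuclear factor I, which binds as a dimer and opens the Gfap promoter in glial progenitors. Nfix, on chromosome 8 at 84699876 to 84800344 (minus strand), had 112, 67.0 and 71.1 TPM in PBS replicates 1 to 3. In DT replicates 1 to 3, it had 141, 145 and 128 TPM. Every DT library was above every PBS library, and PBS replicate 1 stood well above the other PBS libraries. The mean was 83.2 ± 24.7 TPM after PBS and 138 ± 8.47 TPM after DT (SD, n = 3). The log2 difference of CPM was 0.76 ± 0.18 (SE), a ratio of 1.70 with a 95% interval of 1.28 to 2.252, with an unadjusted p of 0.002415 and an adjusted p of 0.158 (limma). The exact permutation test of the TPM gave p = 0.1, the smallest that 3 against 3 libraries allow.

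Whether Nfix was called turned on PBS replicate 1 and on the test. Without that library the log2 difference was 1.004 with an adjusted p of 0.00224 (limma), and with the edgeR exact test on all libraries it was 0.73 with an adjusted p of 0.0164. Over 17 other settings its direction stayed the same, and 2 of them passed the threshold. The ratio of CPM to TPM, which follows the transcript length used for a gene in each library, varied by 5.29% for Nfix across libraries, more than for any other member (0.181% to 2.04%). Lyl1 and G430095P16Rik overlap Nfix on the opposite strand. Lyl1 was listed at 0.829 to 1.98 CPM, beside 137 to 293 CPM for Nfix, and the reads were mapped with their strand.

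Nfia, on chromosome 4 at 97772734 to 98118874 (plus strand), had 84.6, 87.5 and 89.3 TPM after PBS. The DT libraries had 64.4, 72.3 and 82.7 TPM. All DT libraries were below all PBS libraries, with DT replicate 3 the nearest to them. The log2 difference was -0.27 ± 0.08 (SE), with an interval of -0.45 to -0.09, an unadjusted p of 0.0092 and an adjusted p of 0.290 (limma). The adjusted p over the other settings ran from 0.0969 to 0.619, always with Nfia lower after DT.

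Nfib, on chromosome 4 at 82290173 to 82705750 (minus strand), had 112, 104 and 98.4 TPM after PBS and 105, 89.1 and 104 TPM after DT. The groups overlapped, and the log2 difference of -0.09 had an interval of -0.30 to 0.11, and was -0.03 without PBS replicate 1 and -0.004 without DT replicate 2. Among all genes tested, 8.75% had every DT library above every PBS library in CPM and 7.57% had every DT library below, while among the 10 members this held for 1 (Nfix) and 1 (Nfia).

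The order of the NFI genes within their family differed between the groups. After PBS, Nfib had the largest mean share of the summed TPM of the 4 NFI genes (33.2% ± 1.33, SD, n = 3), followed by Nfia (27.8% ± 3.51), Nfix (26.0% ± 4.98) and Nfic (13.1% ± 2.27). After DT, Nfix had the largest share in every library, at 40.1%, 41.1% and 35.3%, against 31.6%, 21.9% and 24.5% after PBS. The shares of Nfia (20.54% ± 2.21) and Nfib (27.9% ± 2.31) after DT were below those of every PBS library. For each of these 3 genes the exact permutation test gave p = 0.1, again the smallest possible. The sum of the family was 316 ± 33.1 TPM after PBS and 356 ± 6.75 TPM after DT, and shares of 1 sum cannot vary independently of each other.

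**Figure D2:**
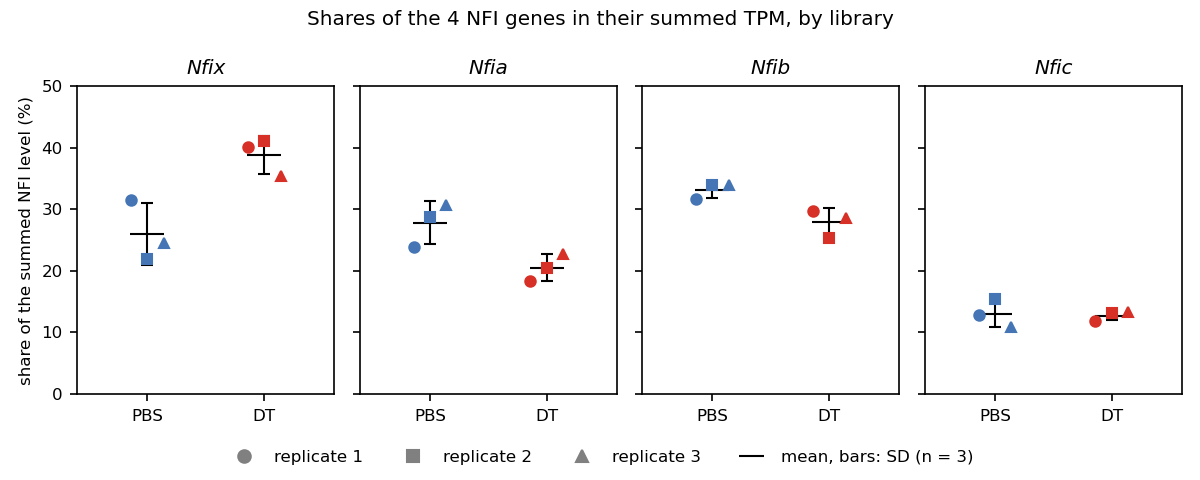
Share of each NFI gene in the summed TPM of Nfix, Nfia, Nfib and Nfic (y axis, percent) in each PBS (blue) and DT (red) library, with the mean and SD of 3 libraries. The mean share of Nfix was 26.0% after PBS and 38.8% after DT without overlap, and that of Nfic 13.1% and 12.7% with overlapping groups.

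ZBTB20 is a zinc finger repressor needed for hippocampal CA1 neurons and also made in astrocytes. Its gene, on chromosome 16 at 42875881 to 43642602 (plus strand), had 71.7, 209 and 229 TPM after PBS. After DT, it had 83.2, 85.3 and 221 TPM. The libraries fell at 2 levels, with PBS replicates 2 and 3 and DT replicate 3 high and the other 3 libraries low, so the split did not follow the treatment. The gap between the levels was 1.28 on the log2 scale. The log2 difference between groups was -0.39 ± 0.48 (SE), with an interval of -1.48 to 0.70 and an adjusted p of 0.828 (limma), or a ratio between 0.358 and 1.63. It depended on which library was left out, from -0.91 without PBS replicate 1 and -0.85 without DT replicate 3 to -0.09 without PBS replicate 3 (-0.15 to -0.17 without each of the others).

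The split of Zbtb20 was compared with the other genes of the tables. The search asked for a mean of 20 CPM or more and a gap of 1 or more on the log2 scale. Libraries of a level could differ by no more than 0.5, and genes split exactly into PBS against DT were left out. Under these rules 41 genes lay at 2 levels, and Zbtb20 was the only member of the 10 among them. No other gene had the same high libraries, and 2 had the opposite split, Gabpb2 and Rnf8-cmtr1. Mir568, a microRNA gene on the same strand within an exon region of Zbtb20, was listed at 3.48 to 4.33 CPM in all libraries. BC002163, a processed pseudogene on the same strand, lies inside Zbtb20 without touching its exons. It was listed at 52.3 CPM in PBS replicate 1 and at 19.4 to 27.8 CPM in the other libraries. The ratio of CPM to TPM of Zbtb20 varied by 0.481%, so the levels were split in the same way in both units.

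RORB and LHX2 represent nuclear receptors and LIM-homeodomain factors among the 10. Rorb, on chromosome 19 at 18930605 to 19111196 (minus strand), had 141, 141 and 130 TPM after PBS and 133, 122 and 122 TPM after DT. The groups overlapped in replicate 3 after PBS and replicate 1 after DT. The log2 difference of -0.14 ± 0.07 had an interval of -0.30 to 0.02 and an adjusted p of 0.523 (limma). Rorb made up 59.7% of the summed TPM of the 3 ROR genes after PBS and 59.0% after DT.

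Lhx2, on chromosome 2 at 38339281 to 38369733 (plus strand), had 149, 164 and 175 TPM after PBS. The DT libraries had 150, 141 and 134 TPM. The groups overlapped only in that PBS replicate 1 lay just below DT replicate 1. The log2 difference was -0.21 ± 0.08 (SE), with an interval of -0.39 to -0.03, an unadjusted p of 0.0262 and an adjusted p of 0.405 (limma).

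PAX6, a paired-domain homeodomain factor of radial glia, had a gene on chromosome 2 at 105668900 to 105697364 (plus strand) with 85.2, 96.7 and 91.4 TPM after PBS and 91.8, 95.6 and 82.1 TPM after DT. Its groups overlapped. The log2 difference of -0.05 had an interval of -0.22 to 0.13 and an adjusted p of 0.871 (limma). Sox2 and Pax6 were the 2 members whose whole interval lay within 0.25 of 0 on the log2 scale, and for 7 members it lay within 0.5, the exceptions being Nfix, Zbtb20 and Hes5.

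**Figure D3:**
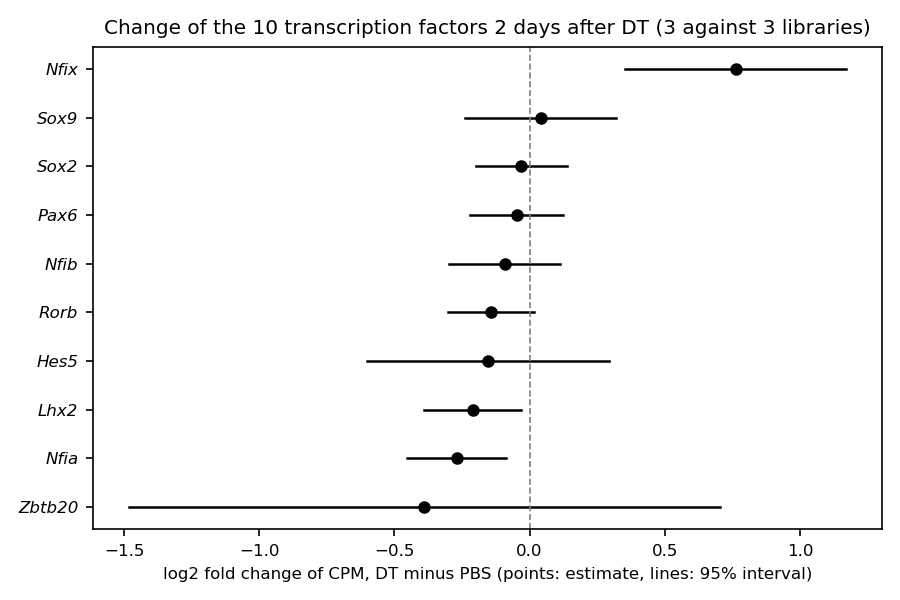
Log2 fold change of CPM (x axis, DT minus PBS) of each of the 10 genes, with its 95% interval from limma (3 against 3 libraries). The estimates run from -0.39 (Zbtb20) to 0.76 (Nfix), and the intervals of Nfix, Nfia and Lhx2 leave out 0.

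HES5 stands at the end of the Notch pathway, in which ligands of the Delta and Jagged families bind NOTCH receptors on a neighbouring cell, the receptor is cut by gamma-secretase, and its freed intracellular part acts with RBPJ on genes such as Hes1 and Hes5. RBPJ recognises the core TGGGAA. The Hes5 promoter, printed below with this core in capitals on either strand, holds 2 matches, at -226 and -82 bases from the start site, the first of them on the reverse strand. The sequence is that of RefSeq (GRCm38.p6, chr4:154960673-154960972, plus strand), from 250 bases before to 50 bases after the start.
Hes5 promoter: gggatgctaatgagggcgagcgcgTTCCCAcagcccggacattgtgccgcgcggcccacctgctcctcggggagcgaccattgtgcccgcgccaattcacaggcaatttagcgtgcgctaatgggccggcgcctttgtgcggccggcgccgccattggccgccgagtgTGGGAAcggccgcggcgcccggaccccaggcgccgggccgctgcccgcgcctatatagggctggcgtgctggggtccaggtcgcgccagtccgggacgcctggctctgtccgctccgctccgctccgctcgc

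Hes5, at 154960923 to 154962371 on chromosome 4 (plus strand), had 176, 174 and 99.4 TPM after PBS. After DT, it had 128, 135 and 131 TPM. The 3 DT libraries lay close together, below PBS replicates 1 and 2 and above PBS replicate 3. The log2 difference was -0.15 ± 0.20 (SE), with an interval of -0.60 to 0.29 and an adjusted p of 0.836 (limma). PBS replicate 3 decided its size, since without it the difference was -0.43 with an adjusted p of 0.0559, and without PBS replicate 1 it was -0.001.

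Of the 41 tested genes of Notch signaling, none passed the threshold with limma or edgeR's quasi-likelihood test, while DESeq2 and the edgeR exact test each called 1, Hes1, as lower after DT. With limma, 1 gene lay above and 6 lay below 0 at an unadjusted p under 0.05 (5.91% and 4.51% of all genes tested). The differences were above 0 for 11 and below 0 for 30, with a median of -0.04, and the groups did not overlap for 2 genes with DT above and 7 with DT below (8.75% and 7.57% of all genes tested). The 3 most abundant genes were Lfng, a glycosyltransferase that modifies NOTCH (log2 difference -0.02), the receptor Notch1 (-0.01) and Dtx3 (-0.14), with adjusted p from 0.704 to 0.984 (limma).

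Hes1, chosen for mention after its values were seen, is the closest relative of Hes5 in function. It had 84.5, 91.3 and 103 TPM after PBS and 68.2, 70.9 and 65.1 TPM after DT. All DT libraries were below all PBS libraries, and the log2 difference was -0.46 ± 0.09 (SE) with an adjusted p of 0.0765 (limma). Of the summed TPM of 8 HES and HEY genes, Hes5 made up 35.6% ± 6.82 after PBS and 34.8% ± 0.32 after DT (SD, n = 3). Hes1 made up 22.8% and 18.0%, and Hey1 23.0% and 27.2%, without overlap between the groups for either gene (exact permutation p = 0.1 for each).

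The promoters of the other factors were searched for the same core and for the NFI half-site TTGGC, the SOX2 core CATTGT, the SOX9 core ACAAAG and the N-box CACNAG bound by HES proteins, on both strands. None of these strings contains another. The set of RefSeq promoters used here held 14 promoters for 8 of the 10 genes, and none for Sox9 and Nfib. The half-site TTGGC was present in 7 of the 14 promoters and in 46.7% of all 32851 promoters of the same length, and the core TGGGAA in 5 of the 14 and in 25.6% of all. CATTGT was present in 3 of the 14 (12.6% of all), ACAAAG in 4 (18.7% of all) and CACNAG in 3 (42.5% of all). A match is a run of letters and not evidence of binding.

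Nfix, the gene with the largest ratio among the members, had 4 listed start sites. Among these 4, the most upstream and the most downstream promoter are shown to compare them at the half-site of the NFI proteins themselves. TTGGC on either strand is in capitals. The gene span in GENCODE begins further upstream, at 84800344 on the minus strand. The upstream promoter (chr8:84780033-84780332, minus strand, GRCm38.p6) held no match. The downstream promoter (chr8:84772826-84773125, minus strand) held 2 matches on opposite strands beside the start site, at -5 and 3 bases. The tables give 1 value a gene, so the level of each start was not measured.
Nfix upstream promoter: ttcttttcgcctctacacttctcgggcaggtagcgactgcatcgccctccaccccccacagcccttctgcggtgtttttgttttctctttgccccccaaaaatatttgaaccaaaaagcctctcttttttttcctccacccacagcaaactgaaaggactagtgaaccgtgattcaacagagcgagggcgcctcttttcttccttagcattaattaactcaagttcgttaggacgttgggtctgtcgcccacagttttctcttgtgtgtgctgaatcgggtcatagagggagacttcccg
Nfix downstream promoter: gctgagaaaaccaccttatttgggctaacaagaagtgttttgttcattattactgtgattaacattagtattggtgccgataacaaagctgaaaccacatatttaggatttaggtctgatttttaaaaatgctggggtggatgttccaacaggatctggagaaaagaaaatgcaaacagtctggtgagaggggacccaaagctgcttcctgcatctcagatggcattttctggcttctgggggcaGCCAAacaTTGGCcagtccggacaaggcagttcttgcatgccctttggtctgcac

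Levels were compared between the 10 genes per length, in TPM. The mean over all 6 libraries was 597 ± 35.8 TPM for Sox2, 336 ± 38.2 for Sox9, 152 ± 15.1 for Lhx2, 150 ± 76.7 for Zbtb20, 141 ± 29.5 for Hes5, 131 ± 8.42 for Rorb, 111 ± 34.2 for Nfix, 102 ± 7.64 for Nfib, 90.5 ± 5.78 for Pax6 and 80.2 ± 9.74 for Nfia (SD, n = 6). Sox2 was above Sox9, and Sox9 above Lhx2, in 6 of 6 libraries (exact sign-flip permutation test, p = 0.03125 for each, the smallest possible, and 0.141 adjusted over 9 neighbouring pairs). The other 7 neighbouring pairs did not keep their order in all libraries. In the PBS libraries alone Nfix had the lowest mean of the 10, and in the DT libraries its place in the order was 4. After PBS, the 10 genes lay between the 85.1 (Nfix) and 98.9 (Sox2) percentile of all genes tested in TPM.

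The genes most like Nfix across the 6 libraries, among 10063 genes that averaged 10 CPM or more, were Pitpnb (Pearson r = 0.988 of log2 CPM), Angptl4 (0.988) and Ankrd52 (0.986). Those most like Sox9 were Lta4h (0.990), Nfyc (0.989) and Rnf44 (0.988). These are descriptions over 6 points that share libraries and a scaling, and with so many genes high values occur for many pairs.

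Relatives of the 10 factors were read beside them. Of 25 relatives, 20 were tested, and none passed the threshold with limma or edgeR's quasi-likelihood test, while DESeq2 and the edgeR exact test each called Hes1 as lower. At an unadjusted p under 0.05, limma had none higher and 3 lower, namely Sox8, Rora and Hes1 (5.91% and 4.51% of all genes tested). Their median log2 difference was -0.08. The most abundant were Sox21, which counteracts SOX2 (143 ± 9.65 TPM after PBS and 144 ± 25.6 after DT), Sox1 (131 ± 8.39 and 124 ± 2.61) and Sox8 (127 ± 14.6 and 101 ± 11.1). Pax7 and Hes3 were listed at 0 in all libraries.

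Among 36 other transcription factors of astrocytes and radial glia, Etv5 was lower after DT and none was higher. Etv5, an ETS factor that responds to FGF signaling, had 164, 173 and 167 TPM after PBS and 133, 133 and 123 TPM after DT, without overlap. Its log2 difference was -0.39 ± 0.06 (SE), with an adjusted p of 0.0276 (limma). DESeq2 called Emx2 as lower too. At an unadjusted p under 0.05, 1 lay above and 8 lay below 0 (5.91% and 4.51% of all genes tested), and the list had 24 differences below 0, 12 above 0 and a median of -0.04. The sum of the list was 4406 to 4763 TPM in the PBS libraries and 4207 to 4302 TPM in the DT libraries, and its most abundant genes were Id4 (log2 difference -0.30, adjusted p 0.343, limma), Id2 (0.0003) and Hopx (-0.03). Id2 and Id4 encode inhibitors that bind bHLH factors.

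Of 20 genes known from other work to be controlled by these factors in glia, Gfap was higher and Gdf10 was lower after DT with limma. DESeq2 also called Glul and Ppargc1a as lower, and the edgeR exact test Ppargc1a, while with limma their log2 differences were -0.25 and -0.32 with adjusted p of 0.297 and 0.0996. Gfap, the intermediate filament gene that SOX9, NFI proteins and Notch signaling act on, had 994, 1080 and 1252 TPM after PBS. After DT, it had 4527, 4300 and 3887 TPM. The groups were far apart, with a log2 difference of 1.93 ± 0.10 (SE) and an adjusted p of 8.2e-05 (limma). Gdf10, a ligand of the TGF-beta superfamily, had 34.2, 30.6 and 33.3 TPM after PBS and 22.7, 21.1 and 22.4 TPM after DT (log2 difference -0.58, adjusted p 0.0379, limma). The median of the list was -0.02, with 9 differences above 0 and 11 below. The most abundant gene of the list, Slc1a2, had a log2 difference of 0.05 with an adjusted p of 0.924 (limma), and Slc1a3 had -0.12 with an adjusted p of 0.701 (limma).

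**Figure D4:**
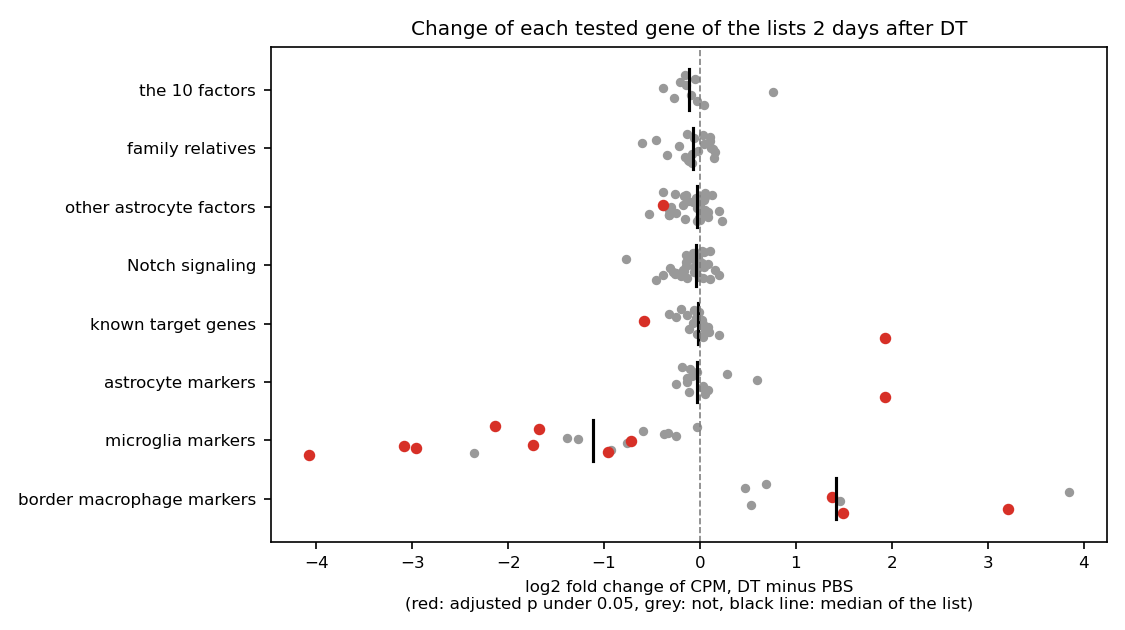
Log2 fold change of CPM (x axis, DT minus PBS) of every tested gene of 8 lists, with the median of each list as a black line and genes with an adjusted p under 0.05 (limma) in red. The 10 factors centre on -0.12 with none in red, while 8 of 18 microglia markers lie to the left in red and Gfap lies at 1.93.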

How the data were processed

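RNA-seq was made from 6 pools of MACS-sorted hippocampal astrocytes (SMARTer Stranded RNA-seq Kit), from 3 independent experiments. Per the labels and the study's methods, the authors trimmed reads with Trim Galore 0.5.0, checked them with FastQC 0.11.8, mapped them with their strand to mm10 with HISAT2 2.1.0, removed ribosomal reads with bedtools 2.25.0, quantified genes with StringTie 1.3.5 and compared groups with edgeR 3.24.3 in R 3.5.1. The authors deposited TPM values, and CPM values that are a signal per TMM-scaled library size (factors of 0.974 to 1.02). The deposited tables also hold the p-values, q-values and fold changes from the authors' own comparison, none of which was used. The design had assumed plain CPM. Reads were recovered by dividing the CPM of each library by the CPM of a single read, which was fitted from its lowest values upward. All recovered values were whole reads (within 0.1 read, values under 5000 reads).

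The deposited CPM, as log2(CPM + 0.1), were compared with limma 3.58.1 in R 4.3.3 (variance trend, two-sided, treatment as the only term). Benjamini-Hochberg adjustment covered the 15137 genes averaging 0.5 CPM or more, with a threshold of 0.05. Fold changes are on the log2(CPM + 0.1) scale. The fit was tested on counts simulated with the same setting for the spread of every gene. That test does not cover genes as variable between libraries as Zbtb20. TPM and family shares were compared with exact two-sided permutation tests in SciPy 1.17.1. Alternatives were other pseudocounts, filters, units, scalings and variance models, a block for the replicate number, leaving out each library in turn, and edgeR 4.0.16 and DESeq2 1.42.0 on the recovered reads. P-values measure the spread between pools of 2 mice.

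The members, gene lists and tests were chosen with earlier results of these data known. Named are all members, every gene of a list past the threshold, the most abundant genes of the lists (3 of each factor or target list), and the 3 genes most correlated with Sox9 and with the member of the smallest p. Some genes that this rule names are not reported here. Lists were written from general knowledge. Gene coordinates come from GENCODE M21 (mm10), and promoters those of RefSeq (GRCm38.p6).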

Additional observations from a re-analysis of the deposited data

How the results depend on the processing

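Over 17 settings for each of the 10 genes, the direction held in all of them for Nfix, Nfia, Nfib, Zbtb20, Rorb, Lhx2 and Hes5. It turned for Sox9 without PBS replicate 3 (-0.10) and without DT replicate 1 (-0.02), for Sox2 without PBS replicate 2 (0.0117) and without DT replicate 3 (0.0202), and for Pax6 without DT replicate 3 (0.0240). With a library left out, the log2 difference ran from -0.10 to 0.15 for Sox9, -0.0872 to 0.0202 for Sox2, -0.0843 to 0.0240 for Pax6, -0.148 to -0.004 for Nfib, -0.91 to -0.09 for Zbtb20, -0.43 to -0.001 for Hes5 and 0.63 to 1.004 for Nfix, and the median of the members from -0.15 to -0.05. Nfix passed the threshold without PBS replicate 1 (1.004) and with the edgeR exact test (0.73), so the number of members higher after DT was 1 in those settings and 0 in the others, and 0 to 1 with a library left out. No member passed as lower.

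Over all genes, 84 were higher and 24 lower. Without a filter these counts were 5 and 1, without a variance trend 35 and 11, with DESeq2 227 and 98, and with the edgeR exact test 191 and 72, and they were 39 to 72 and 9 to 20 with a library left out. The cause was not tested. In the PBS libraries alone, the places in the order of levels were 3 for Zbtb20, 4 for Lhx2, 7 for Nfib, 8 for Pax6, 9 for Nfia and 10 for Nfix. The difference in the share of Rorb in its family was -0.76 percentage points in TPM and 0.73 in CPM.

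Whether the replicate numbers pair the samples was not settled. The deviations of same-numbered libraries correlated at 0.115, 0.0105 and 0.118, and those of differently numbered libraries at -0.124 to 0.0115. Fitting the replicate block gave 79 genes higher and 30 lower, no member passed the threshold, and Nfix had an adjusted p of 0.0714 (limma). With 3 pools in each group, the narrowest 95% interval of a log2 difference among the members was that of Rorb (-0.30 to 0.02) and the widest that of Zbtb20 (-1.48 to 0.70), so that small differences were not detectable.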

Other observations

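Factors of other cell types were read beside those of astrocytes, as values only. The 10 tested factors of the oligodendrocyte lineage had a median log2 difference of -0.17, and none passed the threshold with limma, edgeR or DESeq2, with 1 lower (Sox8) at an unadjusted p under 0.05 (4.51% of all genes tested). Their summed level was 303 to 352 TPM after PBS and 270 to 299 TPM after DT. The 13 tested factors of hippocampal neurons had a median of 0.01, with none called by these tools and none at an unadjusted p under 0.05. The 8 tested factors of microglia and macrophages had a median of -0.01, and none passed the threshold with limma (2 lower at an unadjusted p under 0.05, beside 4.51% of all genes tested), while DESeq2 and the edgeR exact test called Ikzf1 as lower. The summed level of this list was 69.2 to 73.5 TPM after PBS and 66.5 to 68.7 TPM after DT. Most of that sum was Sall1, with a mean of 44.1 TPM after PBS and 43.3 TPM after DT (log2 difference -0.04). Which cells this Sall1 RNA came from was not tested.

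Markers of oligodendrocyte precursors summed to 303 to 341 TPM after PBS and 261 to 290 TPM after DT, with Pdgfra and Gpr17 called lower by DESeq2 and the edgeR exact test and none by limma. The summed levels of the groups overlapped for markers of oligodendrocytes (474 to 614 TPM after PBS and 421 to 513 TPM after DT), neurons (301 to 363 and 270 to 458), pericytes and smooth muscle (901 to 1387 and 1068 to 1491) and dentate stem and progenitor cells (112 to 161 and 118 to 147), and limma called no gene of these lists.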
